A study of Rattus norvegicus with 6 samples.

Results

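The unfolded protein response is the set of changes by which a cell adjusts when proteins fail to fold in the endoplasmic reticulum (ER), and the integrated stress response is the branch shared with amino acid shortage and other stresses. Both are read here from 5 genes in back skin of vehicle-treated and afatinib-treated rats, chosen by their Ensembl identifiers for their place in the pathway. The choice was made with earlier results of these data known. The genes are Hspa5 (ENSRNOG00000018294), Hsp90b1 (ENSRNOG00000026963), Atf4 (ENSRNOG00000017801), Ddit3 (ENSRNOG00000006789) and Trib3 (ENSRNOG00000007319). They are 5 of the 33692 features in the count tables, and all 5 were among the 15497 features kept by a filter on low counts.

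Afatinib binds irreversibly to ErbB receptor kinases such as the epidermal growth factor receptor (EGFR), and rash is a frequent adverse effect of this drug class. The series holds 6 RNA-seq libraries of whole back skin, 3 from rats given vehicle and 3 from rats given afatinib, and the title of the series sets the question of early changes in skin under EGFR inhibitors. The sources used here do not give strain, sex, age, dose, route or duration of treatment, nor do they say that replicates are separate animals. The p-values therefore refer only to the spread among these samples, and part of it may be technical. In such bulk tissue, fewer cells of a type and less RNA per cell cannot be told apart. Libraries are numbered by their titles, and the count columns of afatinib replicates 1, 2 and 3 are headed 3, 4 and 5.

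When unfolded proteins gather in the ER, the sensors ATF6, IRE1 and PERK are released to signal. ATF6 and the XBP1 protein made after IRE1 activation switch on chaperone genes, for which Hspa5 and Hsp90b1 are the usual readouts. PERK and its sister kinases phosphorylate the initiation factor eIF2α, which slows protein synthesis in general while it favours translation of the Atf4 message. ATF4 protein then induces Ddit3 and Trib3, which are linked to cell death and to damping of the response. Dermal fibroblasts secrete large amounts of collagen, and secretory cells depend on the ER chaperones even without stress.

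RefSeq promoters of assembly GRCr8 were matched by symbol for 5 of 5 genes, and the 250 bases upstream of the annotated start were searched on both strands for 3 elements: the ER stress response element (ERSE, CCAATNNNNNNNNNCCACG), bound by ATF6 with NF-Y; the core of the unfolded protein response element (UPRE, TGACGTG), bound by XBP1 and ATF6; and the C/EBP-ATF element (TGATGNAA), bound by ATF4 with C/EBP partners. Capitals mark the matches in the sequences below, which are printed 5′ to 3′ on the strand of the gene. The chaperone promoters are shown because both hold the ERSE, and the end of the Trib3 promoter because it holds the match to the C/EBP-ATF element.
Hspa5, chr3:38452766-38453015, plus strand: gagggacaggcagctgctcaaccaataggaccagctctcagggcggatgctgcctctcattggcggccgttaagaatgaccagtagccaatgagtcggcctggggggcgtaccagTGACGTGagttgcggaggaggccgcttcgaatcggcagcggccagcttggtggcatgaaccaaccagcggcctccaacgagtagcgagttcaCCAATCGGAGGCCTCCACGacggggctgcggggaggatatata
Hsp90b1, chr7:23012294-23012543, minus strand: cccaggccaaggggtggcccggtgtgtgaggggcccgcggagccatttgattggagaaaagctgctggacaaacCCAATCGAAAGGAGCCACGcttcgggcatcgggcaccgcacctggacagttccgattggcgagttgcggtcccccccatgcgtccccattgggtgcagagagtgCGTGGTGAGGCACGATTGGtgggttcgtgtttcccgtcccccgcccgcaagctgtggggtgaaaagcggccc
Trib3, chr3:161275534-161275593, minus strand: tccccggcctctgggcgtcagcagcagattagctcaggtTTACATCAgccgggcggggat

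Only exact matches to these letters were counted, so copies of an element that differ by a base are left out of every count below. Hspa5 held 1 exact ERSE, from 43 to 25 bases before the start, and 1 UPRE core, from 135 to 129 bases before it. Hsp90b1 held 2 ERSE, from 176 to 158 bases before the start on the strand of the gene and from 72 to 54 bases before it on the opposite strand. No match overlapped another. Among 33465 rat promoters of the same length, 22 (0.0657%) held an ERSE, 515 (1.54%) a UPRE core and 1139 (3.40%) a C/EBP-ATF element, and Hsp90b1 was the 1 entry with 2 ERSE. Besides the chaperone pair, 20 entries held an ERSE. They included Calr and Canx (lectin chaperones), Dnajc3 and Creld2 (folding factors of the ER), Derl3 (ER-associated degradation) and Xbp1. These 6 were picked as examples with a known place in the ER. The other 14 entries were not sorted by function, so the split is not one of ER genes against other genes. Among those 14 are Ero1b, Calr4, Birc5, Hnrnpa3, Foxd4, Pan2, Ankmy2 (listed more than once) and 3 loci without a gene name. No enrichment was tested. The Trib3 window held 1 C/EBP-ATF element, from 21 to 14 bases before the start on the opposite strand, and no ERSE or UPRE core. The windows of Atf4 and Ddit3 held none of the 3 elements, which says only that these letters are not in these 250 bases.

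The libraries held between 15304166 and 18494281 counts, so that 3 counts were worth 0.162 to 0.196 CPM by these totals alone. CPM is the read count scaled to the size of the library, and the levels below use TMM-scaled library sizes instead of the totals. Afatinib replicate 3 stood apart from the other afatinib libraries: on the first principal component (60.2% of the variance of log2 CPM over the tested features) its score was -17.7, against 89.1 and 55.4 for afatinib replicates 1 and 2 and -86.6 to -12.5 for the vehicle libraries. The fold changes and ratios below are therefore given with and without it. The defining markers of skin cell types were not checked, because no table used here pairs the identifiers of the other features with gene symbols. For the same reason other pathway genes, such as the sensors, folding enzymes and further ATF4 targets, were not analysed here.

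The ER chaperones were the genes with the widest difference between the groups, and the difference lay in afatinib replicates 1 and 2. Hspa5 encodes BiP, the abundant HSP70 chaperone of the ER lumen that also holds the sensors inactive. Its level was 254, 261 and 357 CPM in vehicle replicates 1, 2 and 3 and 528, 523 and 308 CPM in afatinib replicates 1, 2 and 3. Afatinib replicates 1 and 2 were above every vehicle library, whereas afatinib replicate 3 lay below vehicle replicate 3, so the groups overlapped. The vehicle mean was 291 ± 57.8 CPM and the afatinib mean 453 ± 126 CPM (SD, n = 3 each), a ratio of 1.56. The log2 fold change was 0.64 in edgeR's quasi-likelihood test, with an unadjusted p of 0.0529 and a Benjamini-Hochberg adjusted p of 0.261, and 0.61 ± 0.27 (SE) in limma voom.

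Hsp90b1 encodes GRP94, the HSP90 chaperone of the ER, which folds client proteins such as integrins and Toll-like receptors. Its level was 190, 212 and 260 CPM in vehicle replicates 1, 2 and 3 and 463, 413 and 259 CPM in afatinib replicates 1, 2 and 3. The pattern was that of Hspa5: afatinib replicates 1 and 2 were 2.10 and 1.87 times the vehicle mean, and afatinib replicate 3 was 1.17 times it and just below the highest vehicle library. The vehicle mean was 221 ± 36.0 CPM and the afatinib mean 378 ± 107 CPM (SD, n = 3 each), a ratio of 1.71. The log2 fold change was 0.78 in edgeR, with an unadjusted p of 0.0220 and an adjusted p of 0.212, and 0.74 ± 0.25 (SE) in limma voom.

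**Figure D1:**
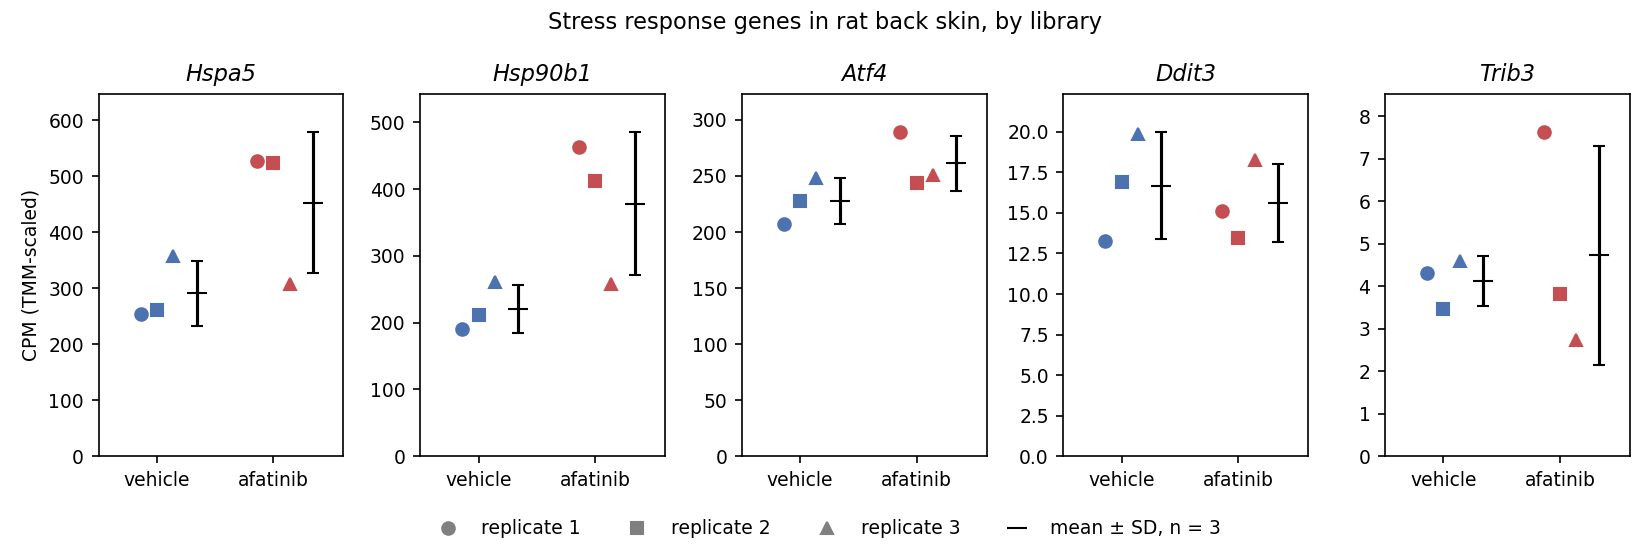
Level of each gene in every library, in TMM-scaled CPM on linear axes that start at 0. Symbols are libraries (3 vehicle, 3 afatinib), and the bar is the mean ± SD of 3 libraries. Hspa5 and Hsp90b1 were highest in afatinib replicates 1 and 2, while afatinib replicate 3, at 308 and 259 CPM, lay within the vehicle range.

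Neither chaperone passed an adjusted p of 0.05 with all 6 libraries, and neither did any of the 15497 features tested in edgeR (0%) or in limma voom. At an unadjusted p under 0.05 there was 1 of the 5 genes, Hsp90b1, against 19.5% of all tested features. DESeq2 called 5.76% of the features to which it gave an adjusted p and neither chaperone (adjusted p of 0.172 for Hspa5 and 0.0754 for Hsp90b1). Without afatinib replicate 3, the log2 fold changes became 0.85 for Hspa5 and 0.98 for Hsp90b1. In that fit Hsp90b1 passed edgeR's test at an adjusted p of 0.0341 and Hspa5 lay just above the threshold at 0.0501, while 10.2% of 16014 features passed. DESeq2 without that library called both, with adjusted p-values of 0.000703 for Hspa5 and 1.54e-05 for Hsp90b1, against 23.6% of the features. Afatinib replicate 3 was the lowest afatinib library for both chaperones, so leaving it out raises both changes. In each edgeR fit without 1 of the other 5 libraries, neither chaperone passed, with adjusted p-values of 0.321 to 0.515 for Hspa5 and 0.318 to 0.461 for Hsp90b1. In the DESeq2 fits without 1 of those libraries neither passed either, with adjusted p-values of 0.118 to 0.487 for Hspa5 and 0.0802 to 0.317 for Hsp90b1.

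The chaperone messages kept nearly the same ratio to each other in every library. How many other pairs of features keep as steady a ratio was not counted, so this is not shown to be particular to the chaperones. The counts of Hsp90b1 were 74.7%, 81.2% and 72.8% of those of Hspa5 in vehicle replicates 1, 2 and 3, and 87.8%, 78.9% and 84.0% in afatinib replicates 1, 2 and 3. These percentages compare counts and not molecules, since the genes differ in length. Over the same libraries the lowest and highest levels of Hspa5 within the afatinib group differed 1.71-fold and those of Hsp90b1 1.79-fold. The log2 ratio of Hsp90b1 to Hspa5, taken from CPM + 2, averaged -0.39 ± 0.08 over the vehicle and -0.26 ± 0.08 over the afatinib libraries (SD, n = 3 each). That difference of 0.13, also 0.13 without afatinib replicate 3, gave p = 0.2 in a two-sided exact permutation test, and 0.286 after Benjamini-Hochberg adjustment over the 10 pairs of genes compared. With 3 against 3 libraries no such p can be below 0.1.

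The transcription factor messages showed smaller differences. Atf4 encodes the central activator of the integrated stress response, whose activity is set mainly by translation of its message. Its level was 207, 228 and 248 CPM in vehicle replicates 1, 2 and 3 and 289, 243 and 251 CPM in afatinib replicates 1, 2 and 3. Afatinib replicate 1 was the highest library, and afatinib replicate 2 lay below vehicle replicate 3. The means were 228 ± 20.6 and 261 ± 24.3 CPM (SD, n = 3 each), and the log2 fold change of 0.20 had an adjusted p of 0.471 in edgeR. Without afatinib replicate 3 it was 0.22, with an adjusted p of 0.356 in edgeR.

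Ddit3 encodes CHOP, the ATF4-induced factor linked to cell death in prolonged ER stress. Its level was 13.3, 16.9 and 19.8 CPM in vehicle replicates 1, 2 and 3 and 15.1, 13.5 and 18.2 CPM in afatinib replicates 1, 2 and 3. Every afatinib library fell between the lowest and highest vehicle library, and the libraries with the highest chaperone levels were not those with the highest Ddit3. The means were 16.7 ± 3.28 and 15.6 ± 2.43 CPM (SD, n = 3 each). The log2 fold change was -0.10 in edgeR (adjusted p of 0.800) and -0.09 ± 0.20 (SE) in limma voom, and it was -0.23 without afatinib replicate 3 (edgeR, adjusted p of 0.485). It was 0.05 without vehicle replicate 3 and 0.0024 without afatinib replicate 2, with adjusted p-values in edgeR of 0.909 and 0.997. Its sign also depended on the scaling: with libraries scaled by total counts alone it was 0.01, in a fit in which the median of all features was shifted by 0.12, so that relative to that median it was -0.11.

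Trib3 encodes a pseudokinase that is induced by ATF4 and CHOP and restrains AKT and ATF4 activity. It had the fewest reads of the 5 genes, with 77, 55 and 80 counts in vehicle replicates 1, 2 and 3 and 129, 69 and 42 counts in afatinib replicates 1, 2 and 3. In CPM these were 4.32, 3.47 and 4.59 in vehicle and 7.62, 3.82 and 2.73 in afatinib libraries, so that afatinib replicate 1 was the highest and afatinib replicate 3 the lowest of the 6. Counting error alone set 95% Poisson intervals of 6.36 to 9.05 CPM on the former and 1.97 to 3.69 CPM on the latter, which do not overlap. The means were 4.13 ± 0.585 and 4.72 ± 2.56 CPM (SD, n = 3 each), and the log2 fold change of 0.20 had an adjusted p of 0.796 in edgeR. It was 0.46 without afatinib replicate 3 (adjusted p of 0.400) and -0.33 without afatinib replicate 1 (adjusted p of 0.662), so its direction rested on that library.

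The spread within a group differed between the genes. The coefficient of variation of Trib3 was 14.2% between vehicle libraries, where counting alone gives 11.9%, and 54.3% between afatinib libraries, where counting gives 11.2%. For Hspa5 the values were 19.9% in vehicle and 27.7% in afatinib libraries, with counting error of 1.42% and 1.14%. Atf4 was the steadiest, at 9.02% and 9.32%. The vehicle spread of Trib3 was thus close to its counting error, while the spread of the other genes was above theirs in both groups.

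Set against all tested features, the chaperones lay in the upper part of the distribution and Ddit3 somewhat below its middle, with Atf4 and Trib3 in between. The log2 fold changes of Hspa5 and Hsp90b1 lay at percentiles 87.4 and 90.1, those of Atf4 and Trib3 at percentiles 66.8 and 66.7, and that of Ddit3 at percentile 42.4. The fitted values were above 0 for 4 of 5 genes, against 49.7% of all features, and their median was 0.20, against -0.00 for all features. Without afatinib replicate 3 the median of the 5 was 0.46, against -0.02 for all features, with 4 of 5 again above 0 against 48.3% of features. Because the 5 genes were chosen with earlier results of these data known, these signs and medians are a description and not an independent comparison. In that fit Trib3 was at percentile 77.9 and Ddit3 at percentile 37.1, while Hspa5 (87.6), Hsp90b1 (89.5) and Atf4 (66.0) stayed near their places. No gene of the 5 had every afatinib library above every vehicle library, an order seen in 12.9% of the features. The levels of Hspa5, Hsp90b1 and Atf4 were above those of 96.7% or more of the features in CPM, which is not corrected for gene length, whereas Ddit3 and Trib3 were at percentiles 47.3 and 22.8.

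**Figure D2:**
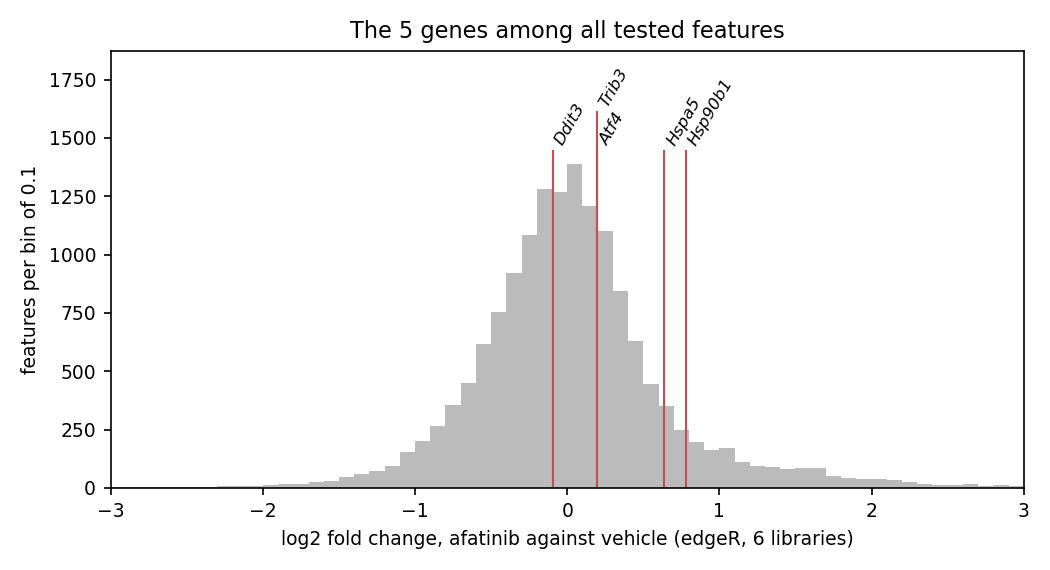
Histogram of the log2 fold change of 15497 tested features in edgeR with 6 libraries, in bins of 0.1, with red lines at the 5 genes. Hspa5 (0.64) and Hsp90b1 (0.78) lie on the right shoulder, where many other features lie as well, and Ddit3 (-0.10), Atf4 (0.20) and Trib3 (0.20) near the centre.

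Ratios of counts within a library, which do not depend on how libraries are scaled, set the stress response genes beside the chaperones. The counts of Ddit3 were 6.99%, 7.99% and 7.62% of those of Hsp90b1 in vehicle replicates 1, 2 and 3 and 3.26%, 3.26% and 7.06% in afatinib replicates 1, 2 and 3. Afatinib replicates 1 and 2 lay far below every vehicle library, and afatinib replicate 3 lay just above vehicle replicate 1, so the groups overlapped. The mean log2 ratio was lower by 0.83 in the afatinib group (difference of -0.83), with p = 0.2 in a two-sided exact permutation test and 0.375 after adjustment over the 10 pairs, and the difference was -1.21 without afatinib replicate 3. Relative to Hspa5, Ddit3 overlapped as well (difference of -0.70, exact permutation p = 0.3, and -1.08 without afatinib replicate 3).

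Trib3 had 2.27%, 1.64% and 1.76% of the counts of Hsp90b1 in the vehicle and 1.64%, 0.927% and 1.05% in the afatinib libraries, in the order of the replicates. Afatinib replicate 1 was at the level of the lowest vehicle library, and the other afatinib libraries were below it. The log2 difference was -0.68 relative to Hsp90b1 (exact permutation p = 0.2) and -0.54 relative to Hspa5 (exact permutation p = 0.3), or -0.60 and -0.47 without afatinib replicate 3. Atf4 had 109%, 108% and 95.4% of the counts of Hsp90b1 in vehicle and 62.3%, 59.0% and 97.1% in afatinib libraries, a difference of -0.55 (exact permutation p = 0.2), and -0.78 without afatinib replicate 3. In counts, none of the 10 pairs separated the groups, and their exact permutation p-values were 0.2 to 0.9. The share of all features that separate the groups relative to a chaperone in counts was not computed, so these differences have no background beside them.

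The planned form of these ratios added 2 CPM to each gene, which weighs on genes of low level and makes the ratio depend on the scaling. In that form 3 pairs separated the groups, each with p = 0.1 by exact permutation and 0.286 after adjustment: Trib3 relative to Hspa5 (difference of -0.54), Trib3 relative to Hsp90b1 (-0.67) and Ddit3 relative to Hsp90b1 (-0.82). These orders came with the added 2 CPM and were not present in the counts. With the same addition, 19.7% of the other tested features were lower relative to Hspa5 in every afatinib library than in every vehicle library, and 39% were lower relative to Hsp90b1.

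**Figure D3:**
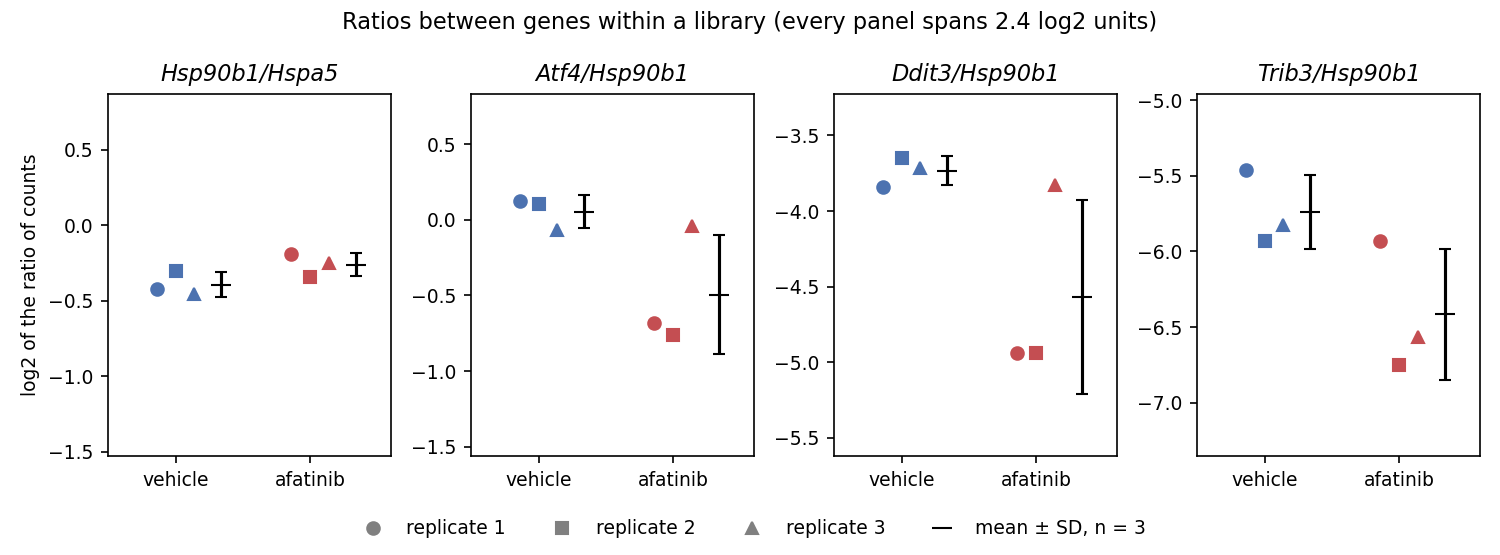
Log2 ratios of counts between pairs of genes within each library, with every panel spanning the same number of log2 units and the bar giving the mean ± SD of 3 libraries. Hsp90b1 relative to Hspa5 varied little, whereas Ddit3 relative to Hsp90b1 was -4.94 in afatinib replicates 1 and 2 and -3.82 in afatinib replicate 3, within the vehicle range.

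The profiles of the genes over the 6 libraries were compared after each log2 CPM profile was set to mean 0 and SD 1, by the root mean square difference, in which 0 means identical profiles. Hspa5 and Hsp90b1 were the closest of the 10 pairs, at 0.168. How many pairs among all features are as close was not counted. Atf4 came next to Hsp90b1 and Hspa5, at 0.541 and 0.628, and Trib3 lay at 0.862 to 0.893 from these 3 genes. Ddit3 was the least like the others, at 1.10 from Atf4 and 1.43 to 1.44 from the rest. Without afatinib replicate 3, Hspa5 and Hsp90b1 were again the closest pair, at 0.145, Ddit3 lay at 1.10 to 1.38 from the others, and Trib3 came nearer to Atf4, at 0.604. Of 11664 other features with a mean of at least 5 CPM, ENSRNOG00000036688 was nearest to the mean chaperone profile, at 0.0898, with a vehicle mean of 294 ± 22.8 CPM and an afatinib mean of 351 ± 36.9 CPM (SD, n = 3 each). ENSRNOG00000018051 was nearest to the mean profile of Atf4, Ddit3 and Trib3, at 0.339, with 20.5 ± 1.96 and 21.8 ± 1.72 CPM (SD, n = 3 each). Without afatinib replicate 3 they ranked 23 and 13 among the features by nearness to these profiles, so the choice depends on that library and is a description only.

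**Figure D4:**
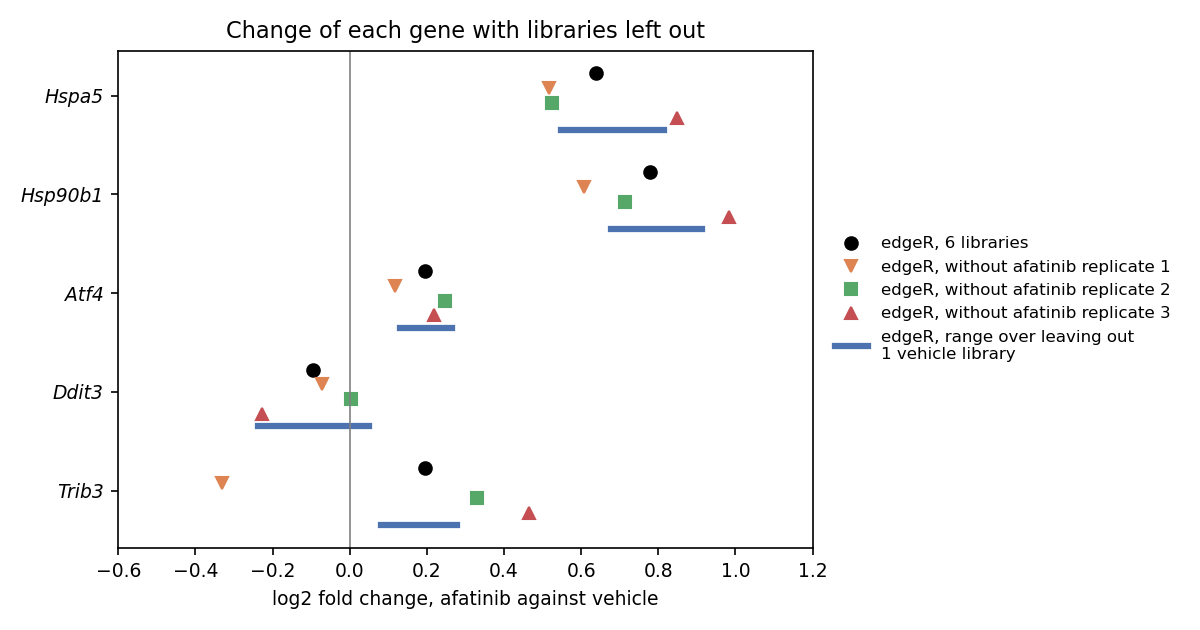
Log2 fold change of each gene in edgeR with all 6 libraries, with each afatinib library left out, and as the range over leaving out 1 vehicle library. The chaperones stay right of 0 and are farthest right without afatinib replicate 3 (0.85 and 0.98), while Trib3 moves from 0.46 without afatinib replicate 3 to -0.33 without afatinib replicate 1 and Ddit3 lies on either side of 0.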

How the data were processed

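Raw read counts were deposited for each library, as whole numbers with totals that differ between libraries. HISAT2 2.0.5, featureCounts 1.5.0-p3 and DESeq2 1.16.1 are named in the submitters' processing notes; the sources used here do not give settings, genome build, annotation or strand, so reads of overlapping or near-identical genes cannot be told apart. The tables hold identifiers without symbols. The 5 symbols come with the list of identifiers that defines the genes, and no other feature is named, because the reference table used (GRCr8) pairs no Ensembl identifier. The planned lists of pathway genes and cell type markers were therefore not used. The genes and lists were chosen with earlier results of these data known.

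From the counts, filterByExpr and TMM in edgeR 4.0.16 (R 4.3.3) preceded a robust quasi-likelihood test over all features, adjusted by the Benjamini-Hochberg method. CPM use TMM-scaled library sizes. For profiles and components, log2 CPM were taken after adding a prior count of 2. Every gene of the 5 was named; other features were named by the nearest standardised profile. Alternatives were RLE, upper quartile and total-count scaling, no filter, 5 CPM in 3 libraries, voom from limma 3.58.1, DESeq2 1.42.0, a block for the replicate number, and each library left out. DESeq2 without each library and with its filter set for 0.05, ratios of counts with nothing added, and profiles and percentiles without afatinib replicate 3 were added after seeing the data. The edgeR, limma voom and DESeq2 tests were tried on simulated counts, drawn independently for each feature with no outlying library. That trial does not show how they behave with a library such as afatinib replicate 3.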

Additional observations from a re-analysis of the deposited data

How the results depend on the processing

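In edgeR the count of features past an adjusted p of 0.05 was 0 with all 6 libraries, under each scaling, filter and the replicate block, and in limma voom. It ran from 0 to 1627 when 1 library was left out, highest without afatinib replicate 3. DESeq2 called 971 features, and 1032 with its filter set for 0.05. Its counts were 398, 490 and 724 without vehicle replicates 1, 2 and 3 and 326, 259 and 4043 without afatinib replicates 1, 2 and 3. Hspa5, Hsp90b1 and Atf4 kept a positive log2 change under every alternative, with ranges of 0.52 to 0.86, 0.61 to 1.00 and 0.12 to 0.32. With 1 library left out in edgeR, Hsp90b1 ran from 0.61 to 0.98 and passed only at the upper end, without afatinib replicate 3. DESeq2 without that library also called Hspa5 (0.86) and Hsp90b1 (1.00). Ddit3 changed sign with total-count scaling (0.0067), ran from -0.24 to 0.051 in edgeR with 1 library left out, and was 0.058 in DESeq2 without vehicle replicate 3 and 0.013 without afatinib replicate 2. Trib3 ran from -0.33 to 0.46 in edgeR with 1 library left out and was -0.32 in DESeq2 without afatinib replicate 1; the filter of 5 CPM removed it. The causes were not tested. Deviations from the group means correlated, across features, by 0.20, -0.21 and -0.39 for replicate numbers 1, 2 and 3. Between unlike numbers the values ran from -0.37 to 0.43. With 3 libraries a group, deviations from the group mean are tied to one another, so these values cannot show whether replicate numbers mark pairs. With the replicate block 0 features passed, with Hspa5 at 0.62 (adjusted p of 0.439 in edgeR) and Hsp90b1 at 0.75 (0.400). Trib3 had the fewest reads, at 42 to 129 counts a library. The ratio of Trib3 to Atf4 was lower in the afatinib group with all libraries (-0.12) and higher without afatinib replicate 3 (0.07).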
